A study of Mus musculus with 8 samples.

Results

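The clustered protocadherin genes lie side by side in 3 clusters, alpha, beta and gamma, on mouse chromosome 18. Members were the protein-coding genes of the RefSeq annotation between 36930285 and 37841873 (mm10) whose symbols start with Pcdha, Pcdhb or Pcdhg. Of 21887 protein-coding genes in the annotation, 57 met this rule, 14 in the alpha, 22 in the beta and 21 in the gamma cluster. Of the 220894 regions in the deposited list, 133 lay in a member gene or within 1000 bp of one.

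The list came from bisulfite sequencing of genomic DNA from 8 cell lines, enriched with a capture kit for mouse methylation sequencing. Mutant IDH was present in 4 lines derived from brain tumours. The wild-type lines were 2 from brain tumours, labelled RAS glioma, and 2 immortalized astrocyte lines, PDGFA and IWT-PDGFA, the second of which expresses exogenous wild-type IDH1. All came from N::TVA mice of mixed background (C57Bl/6, 129 and FVB/n) with floxed Cdkn2a. For the IDH mutant lines and both astrocyte lines the genotype lists further floxed alleles, Atrx among them, which it does not list for the RAS glioma lines. The labels divide the lines by IDH genotype, but the file gives 1 score per region for the whole series. No methylation level, value of a single line, depth, spread over lines or test can therefore be given, and all values below describe the pooled list. The score is the authors' own and was used only within this list. The track label in the file calls the regions targets, and no source used here says whether a region or its score reflects capture design, read coverage or methylation.

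Clustered protocadherins are adhesion proteins of the cadherin superfamily. Single neurons switch on different small sets of them, and the resulting surface identity lets branches of a neuron recognise and avoid each other. Each alpha and gamma gene consists of its own large variable exon, with its own promoter, spliced to constant exons that all genes of that cluster share. The beta genes are single-exon genes without a constant part. DNA methylation of these promoters, CTCF and cohesin take part in the choice of promoter in neurons, and the C-type genes at the ends of the alpha and gamma clusters are chosen in a different, more constant way.

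Nearly all members were represented in the list, and at nearly all of them a region lay directly over the annotated gene start. At least 1 region lay in the gene or within 1000 bp for 56 of 57 members, against 83.8% of all protein-coding genes. Each alpha or gamma gene runs on to the end of its cluster and takes in regions that the whole cluster shares. By this count only the beta genes could lack a region, and 21 of 22 had one. A region lay over the start base of 55 members (96.5%), against 37.5% of 17492 other protein-coding genes whose strand and start are given in the RefSeq promoter table. The first 2500 bp of the gene, taken here as the variable exon because the gene table lists no exons, held a region in 56 members (98.2%), against 72.5% of those other genes. There were 2 or more regions in this window in 51 members (89.5%), against 37.7% of the others. A score of 768 or more, the 75th percentile of the whole list, occurred in this window in 47 members (82.5%), against 34.4% of the others. Members are neighbours in 1 locus and the capture kit's targets were not used here, so these shares were not tested against each other.

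The member without any region was Pcdhb1, the first gene of the beta cluster (37264998 to 37267454). It lay in the longest stretch of the locus without a region, 75610 bp from 37218771 to 37294380. Other long empty stretches separated Pcdha12 from Pcdhac1 (66600 bp), Pcdhac1 from Pcdhac2 (52800 bp), Pcdhb22 from the first region between the beta and gamma clusters (49590 bp), and Pcdhb8 from Pcdhb9 (42960 bp). Regions took up 15.1% of its 911589 bp, against 4.27% of chromosome 18 and 4.82% of all autosomes. The share was 12.5% in the alpha, 16.1% in the beta and 30.2% in the gamma cluster. From the start of Pcdha1 to the end of the Pcdha12 window, where the alpha genes stand close together, it was 31.1%.

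**Figure D1:**
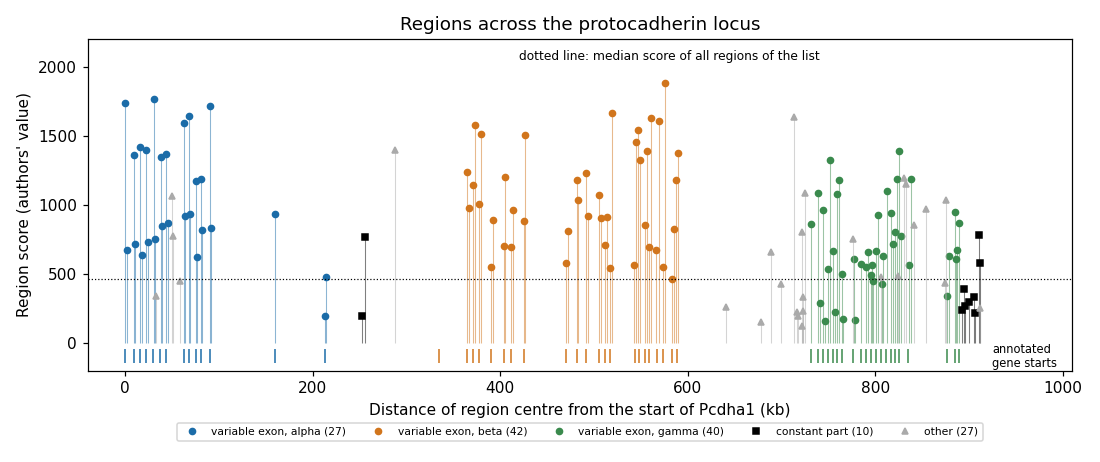
Score of every region of the locus (authors' value, vertical axis) against the distance of its centre from the start of Pcdha1 (kb). Circles are regions in the first 2500 bp of alpha, beta and gamma genes, squares regions in the constant parts, triangles other regions, and ticks under the axis mark annotated gene starts. Every gene but Pcdhb1 has at least 1 circle, and the 10 squares lie between 198 and 785, below the highest circles of each cluster.

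The alpha genes other than the C-type ones repeated 1 pattern 12 times, a lower-scoring region inside the gene and a high-scoring region over its start. All 12 had exactly 1 region of each kind. The inner region ran on average from 1131 ± 76.8 bp to 2110 ± 142 bp relative to the start, and the start region from -408.5 ± 143 bp to 874 ± 111 bp (SD over 12 genes). The gap between them was 60 to 590 bp. Scores of the inner region were 622 to 935 with a median of 786.5, and those over the start 1175 to 1767 with a median of 1408.5. The 2 ranges did not overlap, and the inner score was lower in each of the 12 genes, at 0.388 to 0.690 times the start score.

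Single alpha genes show how regular this was. Pcdha5 had an inner region with a score of 755 (36961491 to 36962420) and the highest start score of the alpha cluster, 1767 (36959991 to 36961270). Pcdha1, the first gene of the cluster, followed with 673 in the inner region and 1733 over the start. Pcdha12 had 832 inside and 1712 over the start, and Pcdha9 had 935 and 1641. The lowest start score of the 12 was that of Pcdha10, with 622 inside and 1175 over the start. All 12 start scores were far above the list's median of 462.

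Wider regions have higher scores in this list, so each score was also set against all regions within 50 bp of its width. On this scale the 12 alpha inner regions, with a median width of 970 bp, stood at percentiles 28.7 to 63.6 (median 43.9). The start regions, with a median width of 1265 bp, stood at 76.3 to 94.6 (median 88.0). The order between inner and start region therefore held at matched width in all 12 genes.

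The beta genes also carried 2 regions each, but placed and scored differently. All 21 genes from Pcdhb2 to Pcdhb22 had 1 inner region and 1 over the start. The inner region ran from 1373 ± 71.1 bp to 2602 ± 126 bp relative to the start, and the start region was shorter, from -382 ± 66.5 bp to 357 ± 177 bp (SD over 21 genes). The gap between them, 720 to 1310 bp, was longer in every beta gene than in any of the 12 alpha genes. No beta gene had a region between 700 and 1200 bp after the start.

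In most beta genes the inner region scored higher than the one over the start, opposite to the alpha genes. It did so in 16 of 21 genes, with medians of 1326 for the inner region and 713 for the start region, and ranges of 811 to 1880 and 466 to 1542 that overlapped widely. The inner region was also the wider one, with a median of 1220 bp against 670 bp. At matched width it still stood higher in 15 of 21 genes, with median percentiles of 85.1 for the inner and 55.7 for the start region.

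Pcdhb20 had the highest score of all members, 1880 in its inner region (37505621 to 37506910), which is 3.41 times the 552 over its start. Pcdhb14 had 1666 in the inner region and 543 over the start, Pcdhb18 had 1631 and 692, and Pcdhb19 had 1603 and 677. At the low end of the beta genes, Pcdhb9 had 811 and 578, Pcdhb21 had 822 and 466, and Pcdhb5 had 890 and 552. The 5 genes with the lower score inside were Pcdhb2 (975 inside and 1240 over the start), Pcdhb10 (1033 and 1180), Pcdhb11 (917 and 1232), Pcdhb12 (903 and 1068) and Pcdhb16 (1326 and 1542). These 5 were named after their values were seen.

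Among the beta genes, 6 had a wide start region of 930 to 1050 bp and the other 15 one of 490 to 750 bp. The 6 were Pcdhb4, Pcdhb6, Pcdhb8, Pcdhb10, Pcdhb11 and Pcdhb12, so that none lay beyond Pcdhb12. Their start regions reached 440 to 683 bp into the gene, against 164 to 329 bp in the other 15. Their start scores were 703 to 1232 with a median of 1037, against 466 to 1542 with a median of 692 in the other 15, so the wider range of the 15 took in that of the 6. At matched width the median percentiles were 70.5 in the 6 and 50.2 in the 15. This division was made after the values were seen and carries no test.

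**Figure D2:**
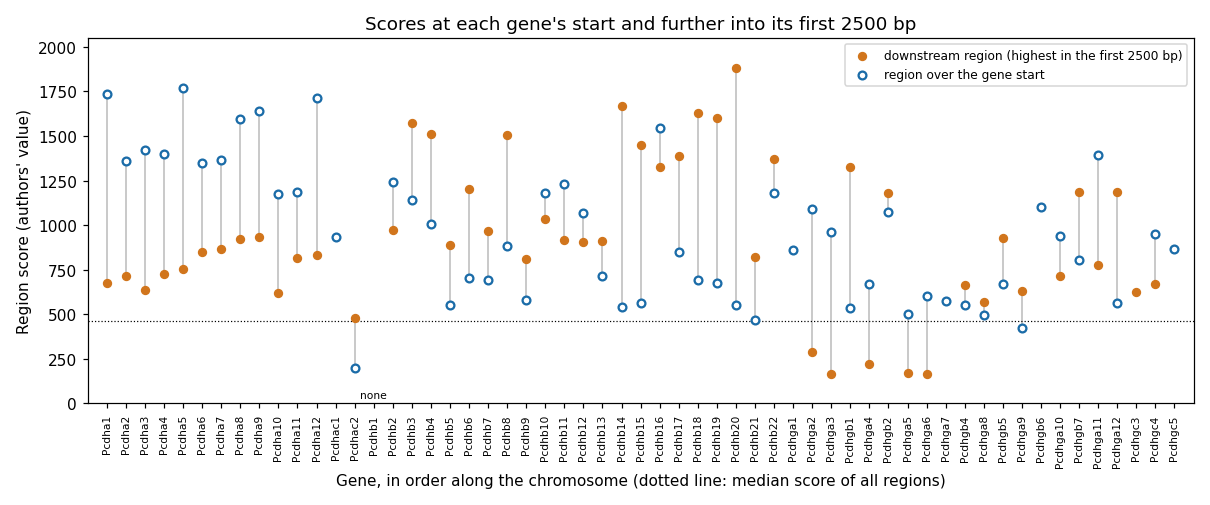
Scores (authors' value, vertical axis) of the highest-scoring inner region in the first 2500 bp (filled circles) and of the region over the gene start (open circles) for the 57 genes in chromosomal order, joined by a line where a gene has both. Filled circles lie below open ones in all 12 alpha genes other than the C-type ones and above them in 16 of 21 beta genes, and Pcdhb1 has neither. The dotted line marks the list's median of 462.

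The gamma cluster interleaves 2 families, gamma A and gamma B, and these differed in what lay beyond the start. All 12 gamma A and all 6 gamma B genes had a region over the start, with overlapping scores, 425 to 1392 (median 636.5) for gamma A and 536 to 1100 (median 735.5) for gamma B. Further in, 5 of the 6 gamma B genes had a second region of 1190 to 1780 bp with a score of 662 to 1327, and in all 5 it scored higher than the start region. In the sixth, Pcdhgb6, a single region of 3040 bp with a score of 1100 covered both places (37741501 to 37744540). All 6 gamma B genes had a region from 1500 to 2400 bp after the start.

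The first gamma A genes had little or nothing at that place. This division of the gamma A genes, and the stretch from 1500 to 1750 bp below, were chosen after the values were seen and carry no test. No gamma A gene had a region from 1500 to 1750 bp after the start, where all gamma B genes had one. Pcdhga1 and Pcdhga7 had no second region in the first 2500 bp. Pcdhga2, Pcdhga3, Pcdhga4, Pcdhga5 and Pcdhga6 had a narrow one of 240 to 510 bp, beginning 1786 to 1874 bp after the start, with scores of 163 to 290. These scores are below the list's median and stood at percentiles 2.96 to 13.2 for their width. The gamma A genes further along the cluster, from Pcdhga8 to Pcdhga12, had further regions. The highest-scoring in each gene was 400 to 1440 bp wide with a score of 567 to 1187. In Pcdhga8 and Pcdhga9 it ran from 955 to 1355 bp and from 965 to 1465 bp, so it ended before the place that all gamma B genes shared. Pcdhga8 had another region further in, with a score of 450. In Pcdhga10, Pcdhga11 and Pcdhga12 the highest-scoring one began 2165, 1848 and 2211 bp after the start. It ended 3095, 3128 and 3651 bp after the start, beyond the 2500 bp window, and in Pcdhga10 and Pcdhga12 most of it lay beyond the window.

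**Figure D3:**
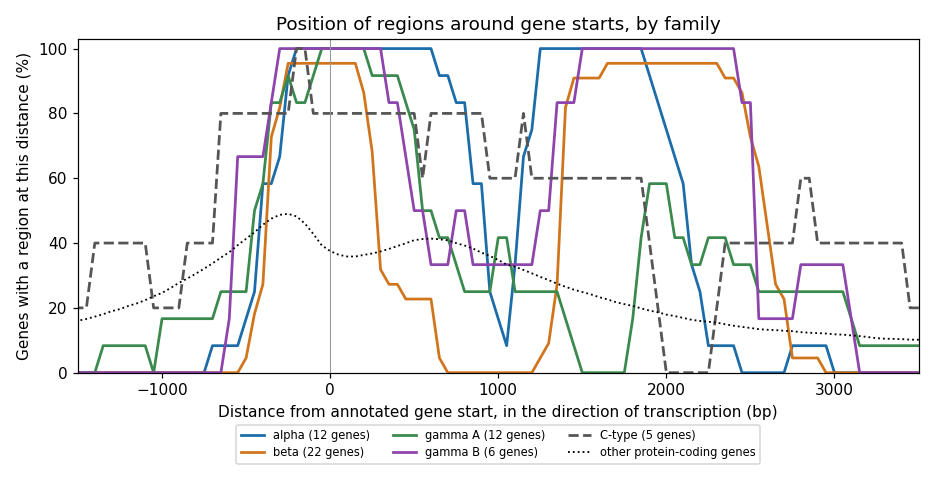
Share of genes (%, vertical axis) with a region at each distance from the annotated gene start (bp, in steps of 50 bp) for the 5 families and for 17492 other protein-coding genes. Alpha, beta and gamma B genes show a block at the start and a second block further in, separated by a gap that is widest in beta genes, where no gene has a region from 700 to 1200 bp. Gamma A genes have none from 1500 to 1750 bp.

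The inner score was the higher one in 3 of the 10 gamma A genes that had both regions, against 5 of 5 gamma B genes. At matched width the inner region stood higher in 4 of the 10 gamma A genes and in 5 of 5 gamma B genes. The 3 with the higher inner score were Pcdhga8 (567 inside and 496 over the start), Pcdhga9 (633 and 425) and Pcdhga12. All lay in the later part of the cluster, and most of the Pcdhga12 inner region lay beyond the 2500 bp window. In the earlier part, Pcdhgb1 had 1327 in the inner region (37681601 to 37682790) and 536 over the start. Pcdhga3 before it had 163 inside and 960 over the start, and Pcdhga4 after it had 223 and 668. Pcdhga3, Pcdhga4 and Pcdhga9 were named here after their values were seen. Pcdhga1, the first gene of the cluster, had 862 over the start (37661311 to 37662320). Pcdhga11 had 776 inside and the highest start score of the cluster, 1392 (37755291 to 37756270). Pcdhgb7 had 1188 inside and 803 over the start, and Pcdhga12 had 1187 and 562. The genes whose highest score in the window was lowest were Pcdhga5 (502), Pcdhga8 (567) and Pcdhga7 (575).

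Gamma start regions scored low for their width beside those of alpha genes. The median percentile was 36.1 for the 12 gamma A genes (10.1 to 88.1) and 37.5 for the 6 gamma B genes (16.5 to 70.8). The same value over the 6566 start regions of other protein-coding genes was 33.2, with a median score of 641 and a median width of 930 bp. Over all 55 member start regions the median score was 935, the median width 1000 bp and the median percentile 54.3. The alpha genes therefore lay well above the other protein-coding genes, and the gamma families close to them, as a description without a test.

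The C-type genes did not share 1 pattern. Pcdhac1 had a region over the start with a score of 935 (37089251 to 37090640), and nothing else in its first 2500 bp. Pcdhac2 had an inner region with a score of 477, and the lowest start score of all members, 197, in a region of 250 bp that ended 13 bp into the gene. No region lay over the start base of Pcdhgc3, at 37806410, although 1 with a score of 1038 ended shortly before it, at 37806260. Of the 2 in its first 2500 bp, 1 began shortly after the start (37806431 to 37807580) with a score of 341. The other, further in, had a score of 627. Pcdhgc4 had 670 as the higher of 2 inner regions and 948 over the start. Pcdhgc5 had a single region of 2600 bp with a score of 867, which reached 1925 bp into the gene. At matched width, 1 of the 9 regions in the first 2500 bp of C-type genes stood above the 50th percentile.

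The constant parts run from the end of the last variable window to the common gene end. Their median scores were lower than those of the variable windows in both clusters. At matched width this order held in the gamma cluster. In the alpha cluster, with only 2 constant regions, it turned round, but not when the C-type genes were left out. In the alpha cluster this part held 2 regions in 42720 bp, 1.69% of its bases, with scores of 198 (37182191 to 37182390) and 768 (37185511 to 37186030), against 27 regions with a median of 935 in the alpha variable windows. In the gamma cluster it held 8 regions in 19828 bp, 25.6% of its bases, with scores of 220 to 785 and a median of 315.5, against 40 regions with a median of 665 in the gamma variable windows. At matched width the 8 gamma regions had a median percentile of 6.03, against 34.1 in the gamma variable windows. The 2 that stood above the 50th percentile had scores of 296 and 785, the second of them close to the common gene end (37840531 to 37841130). Both alpha regions stood above it, at 62.8 and 69.3, with a median of 66.0 against 61.4 in the alpha variable windows. Without the C-type genes, left out after the data were seen, the 24 alpha variable regions had a median percentile of 69.9, above 66.0. Because no exon positions were used, regions on constant exons cannot be told apart from those in the introns between them.

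Over whole clusters, the median score in the variable windows was 935 for alpha, 990.5 for beta and 665 for gamma, against 462 for the whole list. Median percentiles for width were 61.4, 63.5 and 34.1. By score 19 of 27 alpha, 31 of 42 beta and 16 of 40 gamma regions reached 768, the 75th percentile of the list. Within the gamma cluster the count was 7 of 23 gamma A regions and 7 of 11 gamma B regions.

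**Figure D4:**
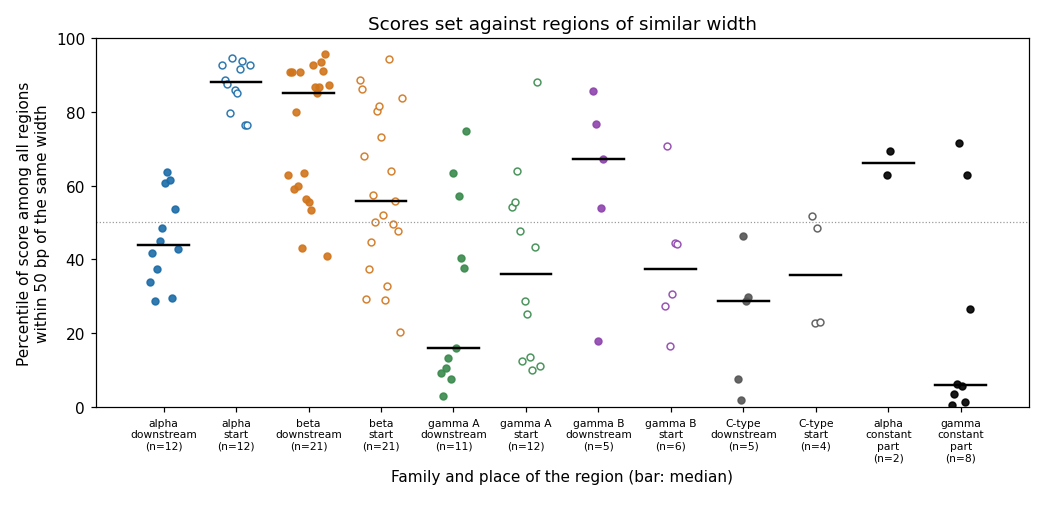
Position of a score (percentile, vertical axis) among all listed regions within 50 bp of its width, by family and place, with a bar at the median. Coloured filled circles are inner regions of the first 2500 bp, open circles start regions, and black circles regions of the constant parts. Medians are highest at alpha starts (88.0) and in the inner beta regions (85.1), and lowest in the gamma constant part (6.03).

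Regions outside the variable windows and constant parts were few. The 133 regions of the members comprised 109 in the variable windows, 10 in the constant parts, 3 that ended within 1000 bp before a start, 10 elsewhere between variable exons and 1 past the common gamma end. Several of the 10 fell on annotated pseudogenes. A pair with scores of 1063 and 775 lay in Gm36858 (36976294 to 36990270), between Pcdha7 and Pcdha8, where a further region had a score of 450. Another pair, with scores of 1195 and 1150, lay at the start of Pcdhgb8 (37761801 to 37840489), which is annotated as a transcribed pseudogene and so is not a member. Its annotated span also takes in later gamma genes. Regions within the alpha and gamma clusters belong to several nested genes at once, so that Pcdha1 counted 33 regions and Pcdhac2 only 4, and regions per gene were therefore not compared.

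Between the clusters, 13 regions lay in no member. Taf7, a subunit of the general transcription factor TFIID, had 1 region of 2600 bp with a score of 1637 (37642351 to 37644950), and Slc25a2, an ornithine transporter gene next to it, had none. The gap between the alpha and beta clusters held 1 region, of 2300 bp with a score of 1396 (37216471 to 37218770). Only the long gene models described below are annotated there in the table used. The gap between the beta and gamma clusters held the other 12. The annotation also lists Gm37013, Gm38666 and Gm38667, protein-coding models that run from an alpha start to the gamma end. They share the regions of the members and were not counted.

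The non-clustered protocadherins are dispersed relatives with similar ectodomains. All 12 had a region in the gene or within 1000 bp. A region lay over the start of 4 of the 9 whose start is given, against 37.5% of the 17492 other protein-coding genes. Their scores were 145 to 552, and all 4 are below the median of 935 over the clustered members. The highest scores anywhere in the 12 genes were 2771 at Pcdh15, a hair-cell tip-link protein, 1970 at Pcdh11x, 1541 at Pcdh1 and 1426 at Pcdh7. These genes are far longer than a beta gene, so the highest score is taken over more regions.

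Genes that act on the clusters or below them were represented as well. All 15 genes of a list of regulators had a region in the gene or within 1000 bp, and 3 of the 11 with a given start had one over it. The highest scores were 2345 at Smchd1, a chromosomal protein that represses protocadherin genes, 1961 at Nipbl, the cohesin loader, 1518 at the cohesin subunit gene Rad21, and 1466 at Wiz, a zinc finger protein. All 13 genes of a list of signalling partners had a region, and 1 of the 5 with a given start had one over it. There the highest scores were 1683 at Wasf1, a WAVE complex subunit, 1573 at the focal adhesion kinase gene Ptk2, 1557 at Abi2 and 1352 at the kinase gene Fyn. Against 83.8% of all protein-coding genes with a region in or near the gene, shares of 12 of 12, 15 of 15 and 13 of 13 describe genes that differ in length, and nothing was read from them. A region lay over the start base of 37.5% of other protein-coding genes, and nothing was read from the small start counts of the lists either.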

How the data were processed

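Per the labels' protocols, genomic DNA of 8 lines grown in DMEM with serum was captured with Agilent's SureSelect XT kit for mouse Methyl-Seq. The submitters' processing notes name Novoalign 3.7.1, Picard and the build mm10. The track label also holds the term min10, which no source used here explains. Nor does any source name the region caller, describe its filters or say what the score means. The score deposited by the authors is 1 whole number of at least 100 per region for the whole series, on a grid of 10 bp, under a narrowPeak track line per the file headers. The comparison of IDH mutant with wild-type lines was planned for values per line and was not run.

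RefSeq gene spans on GRCm38.p6 were used, since mm10 is a name for GRCm38, and strands of other genes from its promoter table, which holds no start of a member. Members were taken as transcribed towards higher coordinates, which is background knowledge. Annotated starts differ in how much untranslated sequence they include. A region counted with at least 1 bp shared, and coordinates count from 1. Percentiles compare a score with all regions within 50 bp of its width. Overlap, coverage and percentile steps were checked on made-up intervals (Python 3.11.15, pandas 2.3.3, numpy 2.4.6). The members and lists were chosen with earlier results of these data known. Named genes were Pcdha1, Pcdhb1, Pcdhga1, the C-type genes, the 4 highest and 3 lowest of each cluster by the highest score in the window, genes without a region, genes between the clusters and up to 4 of each list. Other genes were named after their values were seen. Whether reads of these similar genes also match other copies was not tested. No member sequence is printed.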

Additional observations from a re-analysis of the deposited data

How the results depend on the processing

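Of 44 alternatives, 37 gave a value within 1.5 times the one reported. The other 7 were the medians restated as percentiles, which this factor cannot compare, and the medians of 768 for the alpha constant part given below. The number of members with a region stayed at 56 with 0, 500 and 2000 bp to each side and with scores of at least 200. These alternatives could change only the beta genes, since all genes of the alpha or gamma cluster share regions with scores above 200. Windows of 2000 and 3000 bp, at least 100 bp shared and scores of at least 200 left the variable windows with a region at 14 alpha, 21 beta and 21 gamma genes, and region midpoints gave 13, 21 and 21. The alpha constant part rests on 2 regions, and its median of 483 became 768 with regions of 400 to 800 bp and also with scores of at least 200, each time from 1 region. As percentiles at matched width, a different scale, the medians were 61.4 for alpha, 63.5 for beta and 34.1 for gamma variable windows. They were 66.0 for the alpha and 6.03 for the gamma constant part. The order of the constant and variable parts of the alpha cluster thus turned round with the C-type genes included. With regions of 400 to 800 bp the variable medians were 866 for alpha (1 region), 692 for beta (15 regions, all over starts) and 567 for gamma (7 regions), against 635 for the whole list. Leaving out the C-type genes, an alternative chosen after seeing the data, gave 1055 for alpha and 665 for gamma. The median percentile of the alpha variable windows then became 69.9, above the 66.0 of the alpha constant part, so the order did not turn round.

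No paired analysis was possible because the file gives no value per line, and leaving out single lines was not run for the same reason. The depth of each line is unknown.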
